A study of Mus musculus with 191 samples.

Results

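The cell cycle and mitosis genes are 40 mouse genes whose products copy DNA and divide cells, and their mRNA was measured here in lungs of mice exposed to 26 chemicals. Each gene was given by the probe set of the highest mean among those that the array annotation ties to its symbol alone. Of 18194 genes on the array so represented, 39 were members, with 89 probe sets in all, and the cyclin gene Ccnb1 had none. Of the 39, 29 passed the filter on dim genes and were tested among 13524 genes. The other 10 (Ccne2, Bub1, Aurkb, Cenpe, Kif11, Kif20a, Tpx2, Tyms, Cdc6 and Gins1) lay above the median of all values on fewer than 3 arrays.

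The study, whose title concerns lung tumours, exposed female B6C3F1 mice, a hybrid strain of rodent cancer bioassays, for 13 weeks to the age of 18 weeks. The 133 exposed arrays formed 34 groups and the 58 control arrays 14 sets, each of 3 to 5 animals with 1 array per animal. Array titles carry 4 batch codes, and an exposed group was compared with all the sets that share its vehicle and code. The labels do not name the chemical that a set ran beside. No group carries a transgene or an allele of its own.

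Rodent chow was the vehicle of 1-amino-2,4-dibromoanthraquinone (ABDQ, 20000 ppm), 2,2-bis(bromomethyl)-1,3-propanediol (BBMP, 1250 ppm), diazinon (DIAZ, 200 ppm), malathion (MALA, 14800 ppm in the treatment label but 16000 ppm in the titles) and 4-nitroanthranilic acid (NAAC, 10000 ppm). It was also the vehicle of 1,5-naphthalenediamine (NAPD, 2000 ppm), N-(1-naphthyl)ethylenediamine dihydrochloride (NEDD, 2000 ppm), pentachloronitrobenzene (PCNB, 8187 ppm) and tris(2,3-dibromopropyl)phosphate (TDPP, 1000 ppm). Corn oil was gavaged with benzene (BENZ, 100 mg/kg), 2,3-benzofuran (BFUR, 240 mg/kg), coumarin (COUM, 200 mg/kg), 1,2-dibromoethane (DBET, 62 mg/kg), 1,4-dichlorobenzene (DCBZ, 600 mg/kg), iodoform (IODO, 93 mg/kg), trichlorofluoromethane (TCFM, 3925 mg/kg) or 1,2,3-trichloropropane (TCPN, 60 mg/kg). Distilled water was gavaged with 2-chloromethylpyridine hydrochloride (CMPH, 250 mg/kg) or N-methylolacrylamide (MACR, 50 mg/kg). Ethylene oxide (ETOX, 100 ppm), propylene glycol mono-t-butyl ether (PGBE, 1200 ppm), a compound labelled tetrafluororethane (TFEA, 50000 ppm), tetrafluoroethylene (TFEL, 1250 ppm) and vanadium pentoxide (VANP, 2 mg/m3) were inhaled in air. Methylene chloride (MECL) was inhaled at 100, 500, 2000, 3000 and 4000 ppm and naphthalene (NPTH) at 0.5, 3, 10, 20 and 30 ppm, and these groups carry the concentration after the code. Control sets are ACO (air), CCO and CornOil (corn oil), FCO and RodentChow (chow) and WCO (water). The set ACO3 is labelled 0 mg/m3, a unit that only VANP shares, and the other air sets 0 ppm. All inhalation groups of its batch code were still compared with ACO3.

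A dividing cell loads the ring-shaped MCM helicase onto DNA, makes deoxynucleotides, copies its genome, and then condenses, aligns and separates its chromosomes on the spindle. Cyclins switch the cyclin-dependent kinases on at each step, and the anaphase-promoting complex marks cyclins and other mitotic proteins for destruction at the end. Most of these genes are transcribed in waves, with replication genes first and mitotic genes later, and few cells of an adult lung divide at any time. In lung RNA, fewer dividing cells and less RNA per dividing cell cannot be told apart.

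Values are the authors' deposited log values, with base 2 assumed because the labels state none, so every fold rests on that base. A fold change ± SE is the distance from the mean of the control set means. A gene was called, and is said to have risen or fallen, where limma's Benjamini-Hochberg adjusted p over all genes tested was under 0.05 and the direction the same for each of its control sets. The adjusted p printed is the largest over the sets. Where arrays of a called gene are said not to overlap, the share of all genes so separated was not counted. Of 9 lung markers, the lowest array value of the surfactant gene Sftpc (6.20) lay above 99.94% of all values and that of the lymphatic gene Lyve1 (1.84) above 85.5%. The beta-actin 3′ minus 5′ value, which is higher in more degraded RNA, ran between group means of 0.22 and 0.94. Between sets that share a vehicle and code, 0 of 29 members were called in each of 5 comparisons (background 0.0296% of all genes between CCO2 and CCO3 and 0.0% in the other 4), and by limma 0 or 1 member had an unadjusted p under 0.05.

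Calls among the members were few and spread over chemicals. Of 986 gene-group pairs, 22 (2.23%) were called higher and 4 (0.406%) lower, against 1.86% and 0.722% of the pairs of all genes, so the members were called about as often as other genes. They fell in 10 of 34 groups and on 17 of 29 members. In TCPN 7 of 29 members rose (24.1%, against 7.73% of all genes). RNA integrity numbers did not overlap there, at 9.4 to 9.6 in TCPN, 6.7 to 7.5 in CCO5 and 8.4 to 8.8 in CCO6. In each of these control sets 1 array was unrated. Titles of CCO5 replicates 1, 2, 3 and 5 and CCO6 replicates 2 and 3 carry an r after the animal number. No TCPN title does, and the labels do not explain the mark. An array's SD over all probe sets was 1.33 to 1.38 in TCPN, 1.155 to 1.403 in CCO5 and 1.07 to 1.386 in CCO6. The part of RNA quality and of array SD was not tested. In BBMP 5 rose (17.2%, against 10.4%), in ABDQ 3 rose (10.3%, against 0.643%) and in MACR 2 rose (6.90%, against 4.19%). In IODO 2 rose and 2 fell (6.90% each, against 15.6% and 11.9%), which is below the background in both directions. A single member rose in COUM (background 4.06%), NPTH_20 (1.12%) and NPTH_30 (1.58%), and a single member fell in BFUR (0.2%) and TFEL (1.48%). The median over the members lay above the median over all genes in 28 of 34 groups, many of which share control arrays and so are not independent. Members' medians were largest in TCPN (0.21, all genes 0.07), ABDQ (0.21, all genes 0.00) and DIAZ (0.20, all genes 0.06) and lowest in BFUR (-0.12, all genes 0.04).

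**Figure D1:**
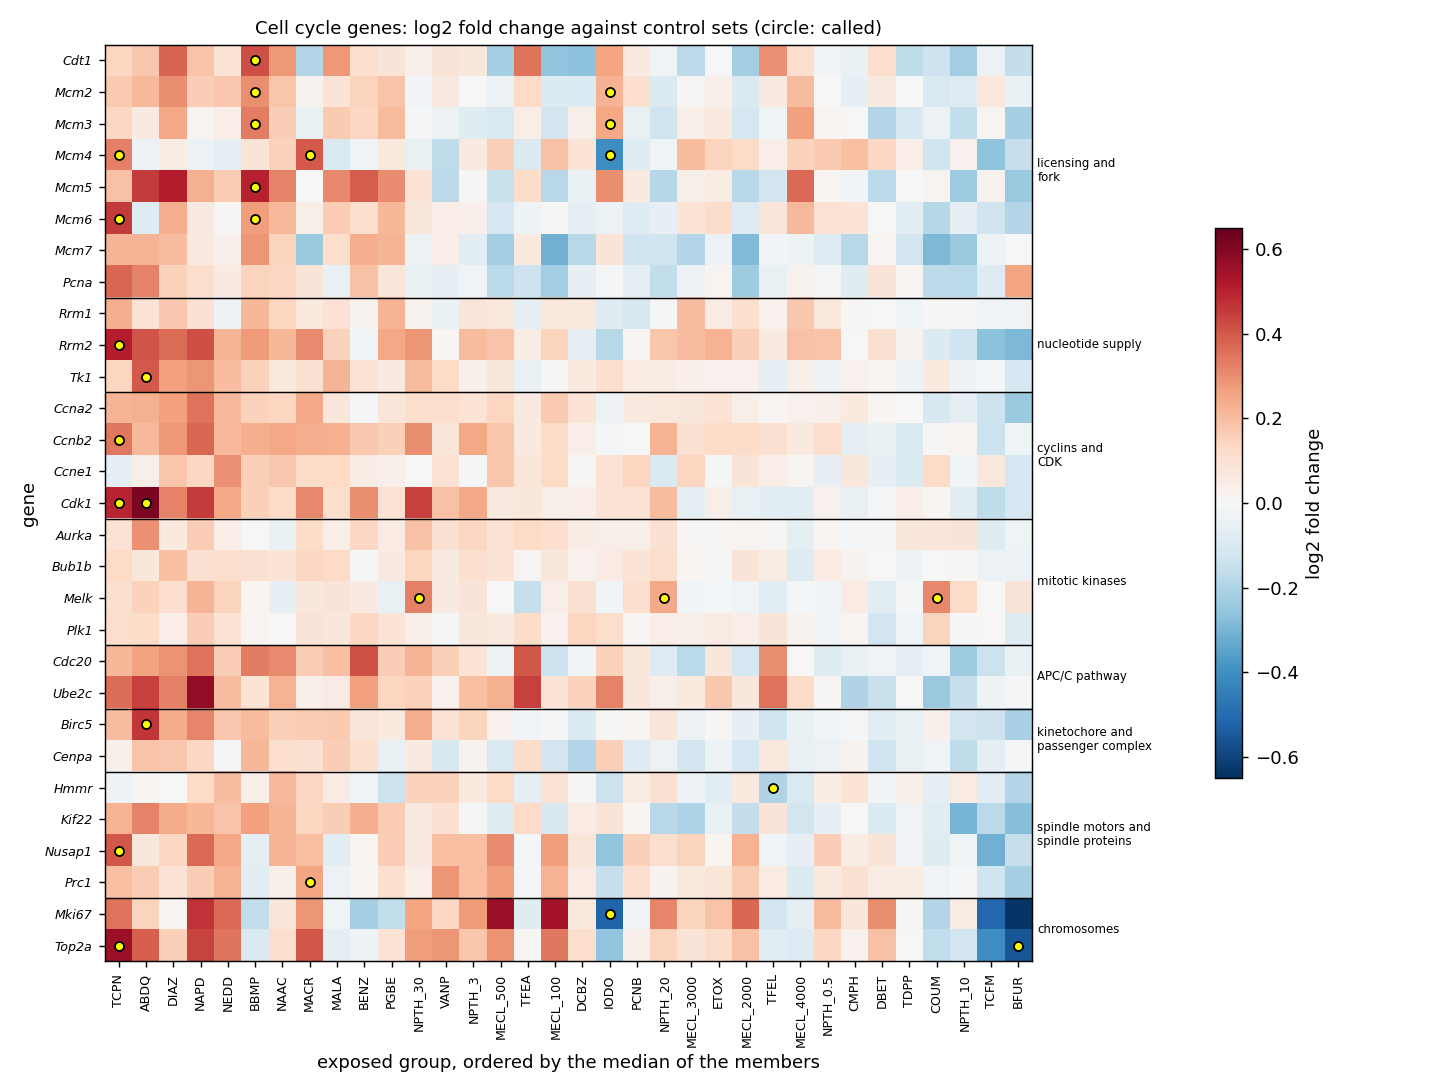
Log2 fold change of the 29 tested members (rows, by role) in 34 exposed groups (columns, ordered by the members' median), with a circle on each called gene. The 7 circles of TCPN and 5 of BBMP are the most in any group, and the BBMP circles all lie among the licensing genes.

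Many of these counts changed when an array was left out, in fits that also dropped up to 1 array of each other batch code. The TCPN count fell from 7 to 3 without TCPN replicate 3 or 4 or CCO6 replicate 3 or 4, and to 4 without TCPN or CCO6 replicate 1. The BBMP count was 0 without FCO2 replicate 2 or BBMP replicate 3 or 4, 3 without FCO2 replicate 3 or 4, and 8 without BBMP replicate 2. The ABDQ count was 0 without ABDQ replicate 2 or FCO1 replicate 1, 3 or 4, 5 without ABDQ replicate 4 and 10 without FCO1 replicate 2. The IODO count was 0 without IODO replicate 2 or CCO4 replicate 1 or 3, and 7 without IODO replicate 3 or CCO4 replicate 2 or 4. The MACR count was 0 without MACR replicate 1 or 3 or WCO1 replicate 1, 3 or 4, 1 without MACR replicate 2 and 4 without MACR replicate 4. Quantile normalization within the array batch took TCPN and BBMP to 0 calls, and a fit to the compared arrays alone left 1 call in TCPN and 0 in ABDQ, IODO and MACR.

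Licensing and replication fork genes gave 10 of the 22 rises. Mcm2 to Mcm7 encode the 6 subunits of the MCM helicase, Cdt1 loads that helicase at origins, and Pcna encodes the clamp that holds the DNA polymerase. In BBMP, Mcm5 stood at 1.06, 1.01, 1.20 and 1.34, against 0.62, 0.43, 0.82 and 0.73 in the chow set FCO2. All 4 exposed arrays lay above all 4 control arrays, with a difference of 0.50 ± 0.14 (1.42-fold, adjusted p = 0.0235). Cdt1 stood at 0.71, 0.64, 0.88 and 0.89 against 0.44, 0.19, 0.41 and 0.42 (0.42 ± 0.13, adjusted p = 0.0304). Mcm3 stood at 0.31, 0.29, 0.34 and 0.43 against -0.06, -0.10, 0.14 and 0.05 (0.33 ± 0.08, adjusted p = 0.0121). In neither gene did the groups overlap, and Mcm2 (0.30 ± 0.09, adjusted p = 0.0239) and Mcm6 (0.27 ± 0.09, adjusted p = 0.0425) were also apart on every array. These genes were picked by their calls, so their separation is no added evidence. Mcm4, Mcm7 and Pcna were not called in BBMP.

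The probe sets of a licensing gene did not all move alike in BBMP. The single other probe set of Mcm2 gave 0.26, and the other probe sets above the filter of Mcm5, Cdt1 and Mcm6 gave 0.28, 0.23 and 0.27, while a probe set of each below the filter gave -0.22, -0.17 and -0.10. The 4 other probe sets of Mcm3 gave -0.04 to 0.19, all below the 0.33 of the probe set used. Averaging all probe sets of a gene left 1 BBMP call. BBMP moved the median of all genes by 0.10, so the licensing genes' median of 0.30 lies 0.20 above it, and after quantile normalization Mcm5 was at 0.35 (adjusted p = 0.318) and Cdt1 at 0.30 (adjusted p = 0.335). The calls of Mcm2, Mcm3 and Mcm5 were lost without FCO2 replicate 2 or BBMP replicate 3 or 4, at 0.27 to 0.48 and an adjusted p of 0.0702 to 0.17. Cdt1 was also lost without FCO2 replicate 3 or 4 (adjusted p = 0.0507 to 0.174 over its 5 losses), and Mcm6 without any array but BBMP replicate 2. Beta-actin 3′ minus 5′ values were 0.29 to 0.36 in BBMP and 0.46 to 0.62 in FCO2. An array's SD over all probe sets was 1.304, 1.214, 1.406 and 1.407 in BBMP and 1.21 to 1.246 in FCO2. The part of RNA quality and of array SD in these rises was not tested.

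Mcm6 and Mcm4 rose in TCPN. Mcm6 stood at 1.30, 1.52, 1.32 and 1.26 in TCPN, against 0.62 to 1.14 in CCO5 and 0.80 to 1.14 in CCO6. All exposed arrays were above all 10 control arrays (0.46 ± 0.08, 1.37-fold, adjusted p = 0.00278), and the call held without any 1 of the 14 arrays. Its other probe set above the filter gave 0.29 and a dim one -0.25, and with the probe sets averaged Mcm6 was at 0.17 (adjusted p = 0.0851). Mcm4 stood at 0.97, 1.00, 0.97 and 0.96, against 0.37 to 1.07 in CCO5 and 0.39 to 0.89 in CCO6, so that 1 CCO5 array was higher than all exposed arrays (0.33 ± 0.10, adjusted p = 0.0469). The Mcm4 call was lost without any of 11 of the 14 arrays (CCO5 replicates 1, 2, 3 and 5, CCO6 replicates 1, 3 and 4, or a TCPN array), at 0.29 to 0.33 and an adjusted p of 0.0549 to 0.223. Mcm2, Mcm3, Mcm5, Mcm7, Cdt1 and Pcna were not called in TCPN, and Pcna came closest, at 0.37 (adjusted p = 0.053).

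Mcm4 was called in 3 groups, as many as any member, and in both directions. In MACR it stood at 1.06, 0.94, 1.08 and 0.89, above WCO1 at 0.64, 0.76, 0.62 and 0.37 (0.40 ± 0.12, adjusted p = 0.0396). In IODO it stood at 0.55, -0.05, 0.42 and 0.43, against 0.87, 0.53, 0.88 and 0.67 in CCO4 (-0.40 ± 0.12, adjusted p = 0.0129). The IODO fall is largest in replicate 2, and replicate 1 overlaps the lowest control array. The second Mcm4 probe set gave 0.32 in MACR and -0.45 in IODO, the same directions. Over the 34 exposed groups Mcm4 means ran from 0.34 in IODO to 0.99 in MACR with a median of 0.60, and over the control sets from 0.49 to 0.74.

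Mcm3 and Mcm2 rose in IODO while Mcm4 fell. Mcm3 stood at 0.32, 0.61, 0.01 and 0.05, against -0.10, 0.08, -0.07 and 0.08 (0.25 ± 0.08, adjusted p = 0.0221), and Mcm2 at 0.49, 0.72, 0.19 and 0.18, against 0.10, 0.21, 0.08 and 0.28 (0.22 ± 0.09, adjusted p = 0.0457). Replicates 1 and 2 were above all control arrays for both genes, and replicates 3 and 4 within the control range for both. Mcm3 and Mcm2 lost their calls without IODO replicate 1 or 2 or CCO4 replicate 1 or 3, at 0.12 to 0.23 and an adjusted p of 0.0593 to 0.509. Beta-actin 3′ minus 5′ values were 0.26 to 0.49 in IODO and 0.56 to 0.94 in CCO4. An array's SD over all probe sets was 1.251, 1.441, 1.139 and 1.169 in IODO and 1.22 to 1.28 in CCO4. The 1.441 of IODO replicate 2 was the highest of all arrays. The part of RNA quality and of array SD in the IODO calls was not tested.

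Among the genes of nucleotide supply, Rrm1 and Rrm2 encode the large and small subunits of ribonucleotide reductase and Tk1 a thymidine kinase. Rrm2 rose in TCPN, at 0.34, 0.26, 0.57 and 0.50 against -0.21 to 0.12 in CCO5 and -0.26 to 0.03 in CCO6. The groups were apart on every array (0.51 ± 0.11, 1.42-fold, adjusted p = 0.00799), both other Rrm2 probe sets gave 0.25 and 0.45, and the call held without any 1 of the 14 arrays. After quantile normalization it was at 0.37 (adjusted p = 0.0888). Tk1 rose in ABDQ, at 0.00, 0.50, 0.01 and -0.31 against -0.44, -0.03, -0.43 and -0.49 in FCO1 (0.40 ± 0.09, adjusted p = 0.0186). Its groups overlapped, since ABDQ replicate 4 lay below FCO1 replicate 2. Rrm1 was called in no group, with fold changes of -0.11 to 0.23.

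The cyclin-dependent kinase gene Cdk1 and the B-type cyclin gene Ccnb2, whose products drive entry into mitosis, rose in TCPN. Cdk1 stood at 0.31, 0.31, 0.52 and 0.51, against -0.46 to 0.25 in CCO5 and -0.21 to 0.13 in CCO6, without overlap (0.50 ± 0.13, adjusted p = 0.0342). Ccnb2 was at 0.34 ± 0.09 (adjusted p = 0.0303), with exposed arrays of -0.19 to 0.01 and control arrays of -0.61 to -0.19. Cdk1 lost its call without TCPN replicate 1, 3 or 4 or CCO6 replicate 1, 3 or 4 (0.46 to 0.53, adjusted p = 0.0581 to 0.0946), and Ccnb2 without TCPN replicate 3 or 4 or CCO6 replicate 1, 3, 4 or 5 (0.31 to 0.35, adjusted p = 0.0535 to 0.0915).

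The largest fold change of any member called in a group was that of Cdk1 in ABDQ. Cdk1 stood there at 0.65, 1.47, 0.58 and -0.01, against -0.15, 0.67, 0.06 and -0.34 in FCO1 (0.61 ± 0.16, 1.53-fold, adjusted p = 0.0308). ABDQ replicate 2 was the only exposed array above the control range, the other 3 lay within it, and FCO1 replicate 2 was the highest control. The passenger complex gene Birc5 (survivin) was also highest in replicate 2 and lowest in replicate 4, at 0.01, 0.48, 0.09 and -0.43 against -0.47, -0.07, -0.42 and -0.76 (0.47 ± 0.12, adjusted p = 0.0308). Without ABDQ replicate 2 the ABDQ differences were 0.35 for Cdk1, 0.32 for Birc5 and 0.25 for Tk1, and none was called (adjusted p = 0.17 to 0.243). Beta-actin 3′ minus 5′ values were 0.41 to 0.54 in ABDQ and 0.57 to 0.76 in FCO1, and their part was not tested. The cyclin genes Ccna2 and Ccne1 were called in no group, with fold changes of -0.24 to 0.35 and -0.12 to 0.29.

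**Figure D2:**
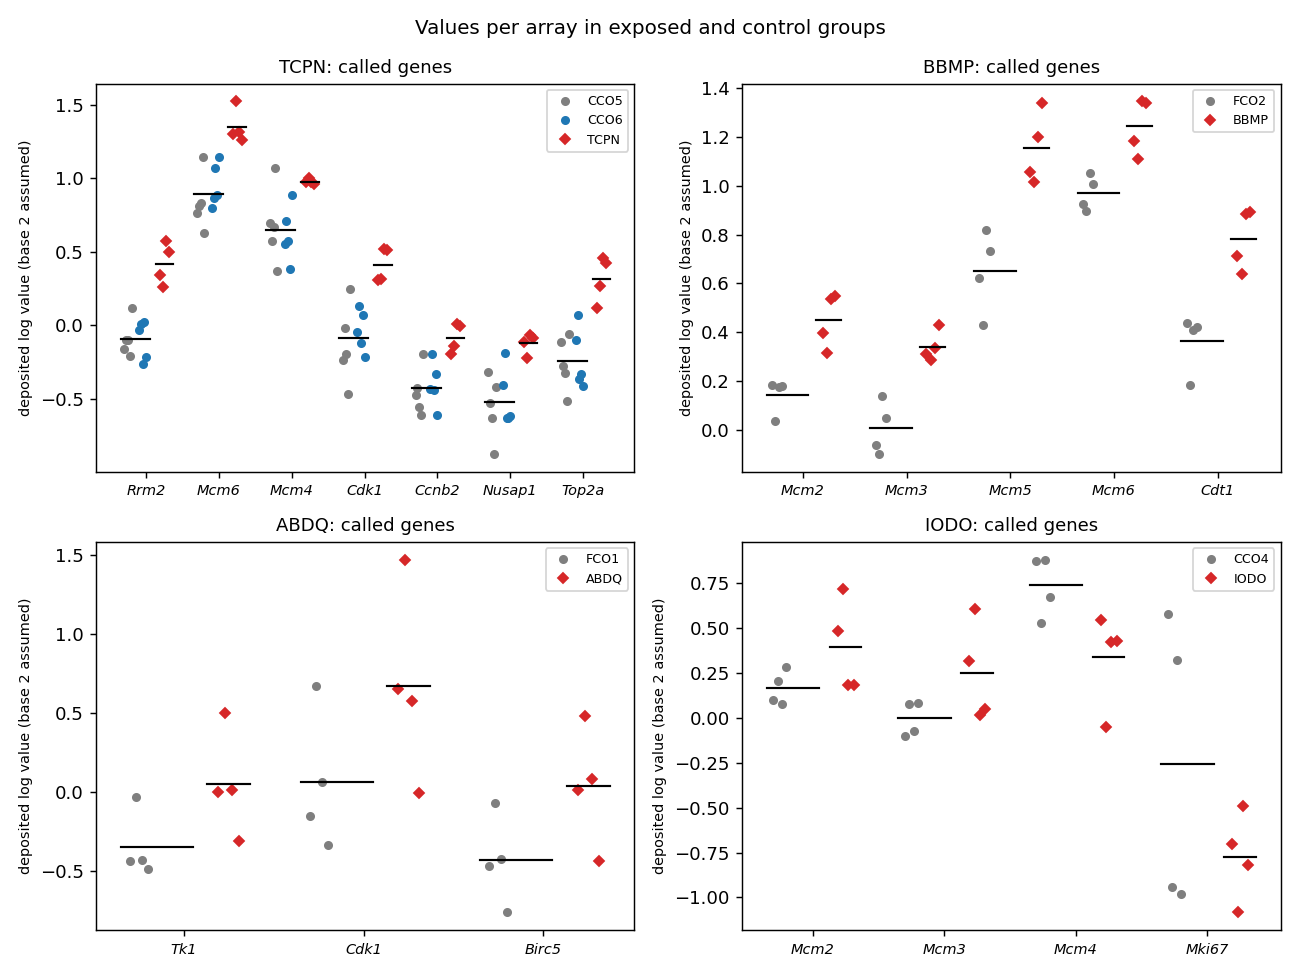
Deposited log value per array of every called member in TCPN, BBMP, ABDQ and IODO (red diamonds) and in their control sets (grey and blue circles). Horizontal bars are the group mean and the mean of the control set means. BBMP arrays stand clear of FCO2 for all 5 genes, which were picked by their calls, whereas ABDQ and IODO arrays overlap their controls.

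Among the mitotic kinases, Melk, which encodes a kinase of proliferating cells, was called in 3 groups. In COUM it stood at -0.47, -0.20, -0.20 and -0.35, against -0.61 to -0.56 in CCO2 and -0.77 to -0.52 in CCO3 (0.31 ± 0.06, 1.24-fold, adjusted p = 0.0042). In NPTH_20 it stood at -0.34, -0.39, -0.31 and -0.43 (0.25 ± 0.05, adjusted p = 0.0223) and in NPTH_30 at -0.46, -0.06, -0.33 and -0.30 (0.33 ± 0.05, 1.26-fold, adjusted p = 0.000508). The air sets ran from -0.72 to -0.49 in ACO3, from -0.70 to -0.60 in ACO4 and from -0.82 to -0.51 in ACO5, so none of the 3 Melk rises overlapped its controls. The NPTH_30 call held under each alternative run and without any 1 of 18 arrays. The COUM call was lost without COUM replicate 3 (0.28, adjusted p = 0.0575). An array's SD over all probe sets was 1.281, 1.236, 1.046 and 1.007 in COUM, and 1.007 was the lowest of all arrays. That SD was 1.143 to 1.276 in CCO2 and 1.083 to 1.394 in CCO3, and its part was not tested. The NPTH_20 call was lost without NPTH_20 replicate 1 or 3, ACO3 replicate 1 or 2 or ACO5 replicate 3 (0.23 to 0.24, adjusted p = 0.0691 to 0.148), and without the ACO3 array of RNA integrity number under 7. Melk is a dim gene here with 1 probe set, above the median of all values on 12 arrays.

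Aurka and Plk1, kinases of the spindle poles, and Bub1b, a spindle checkpoint kinase, were called in no group. Their fold changes ran from -0.08 to 0.30, from -0.13 to 0.16 and from -0.08 to 0.19. In the anaphase-promoting complex pathway, Cdc20 encodes an activator of that complex and Ube2c a ubiquitin-conjugating enzyme that works with it. Neither was called, although Ube2c reached 0.58 in NAPD and Cdc20 0.42 in BENZ. Cenpa, the histone H3 variant of centromeres, stayed between -0.19 and 0.22.

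Of the spindle genes, Nusap1, a spindle-binding protein, rose in TCPN and Prc1, which bundles microtubules of the central spindle, in MACR. Nusap1 stood at -0.11, -0.22, -0.06 and -0.08, against -0.87 to -0.31 in CCO5 and -0.63 to -0.19 in CCO6 (0.40 ± 0.10, adjusted p = 0.0206). Its other probe set, which is below the filter, gave -0.22, and with both averaged Nusap1 was at 0.09 (adjusted p = 0.438). The call was also lost without TCPN replicate 1, 3 or 4 or CCO6 replicate 3 or 4. Prc1 stood at -0.18, -0.05, -0.25 and -0.32, above WCO1 at -0.50 to -0.41 (0.26 ± 0.08, adjusted p = 0.0466). It lost its call without MACR replicate 1, 2 or 3 or WCO1 replicate 1, 3 or 4 (0.21 to 0.27, adjusted p = 0.0936 to 0.226). Hmmr, a hyaluronan receptor that also acts on the spindle, fell in TFEL, at -0.85, -0.88, -0.84 and -0.90 against -0.69 to -0.64 in ACO1 (-0.20 ± 0.06, adjusted p = 0.0375). Hmmr was above the median of all values on 4 arrays, its 4 other probe sets were below the filter, and its TFEL call was lost without TFEL or ACO1 replicate 2, 3 or 4 and with the probe sets averaged (-0.08, adjusted p = 0.344). RNA integrity numbers were 8.8 to 9.3 in TFEL and 7.6 to 8.4 in ACO1, and beta-actin 3′ minus 5′ values 0.19 to 0.26 and 0.49 to 0.81, and their part was not tested. The motor gene Kif22 was called in no group (-0.30 to 0.32).

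Top2a, the topoisomerase that untangles sister chromosomes, and Mki67, whose product Ki-67 coats mitotic chromosomes and marks cycling cells, had the widest spread. Top2a rose in TCPN, at 0.12, 0.27, 0.46 and 0.42 against -0.51 to -0.06 in CCO5 and -0.41 to 0.07 in CCO6 (0.56 ± 0.12, 1.47-fold, adjusted p = 0.00736). No TCPN array overlapped the controls, and the call held without any 1 of the 14 arrays. It was lost with the probe sets averaged (0.15, adjusted p = 0.115), after quantile normalization (0.43, adjusted p = 0.0555) and in a fit to the compared arrays alone (adjusted p = 0.0884). Top2a fell in BFUR, at -0.72, -0.69 and -0.67 against -0.29, 0.01 and -0.12 in CornOil (-0.56 ± 0.16, adjusted p = 0.0479). Its 2 other probe sets were below the filter and gave -0.14 and 0.02 in TCPN and -0.27 and 0.09 in BFUR. The BFUR call was lost without BFUR replicate 1 or 3 or any CornOil array (-0.63 to -0.48, adjusted p = 0.0605 to 0.546), and 2 members fell without BFUR replicate 2. It was also lost with the probe sets averaged (-0.24) and under 4 other settings (-0.56 to -0.51, adjusted p = 0.0542 to 0.414).

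Mki67 fell in IODO, at -0.70, -1.08, -0.49 and -0.82 against 0.58, -0.94, 0.32 and -0.98 in CCO4 (-0.52 ± 0.17, 1.43-fold, adjusted p = 0.0184). The control arrays were split, with replicates 1 and 3 high and replicates 2 and 4 as low as the exposed arrays, so the groups overlapped. Without CCO4 replicate 1, CCO4 replicate 3 or IODO replicate 2 the difference was -0.42 to -0.24 (adjusted p = 0.227 to 0.34). TCFM, set against the same CCO4 arrays, had Mki67 at -0.80, -1.04, -0.87 and -0.35 (-0.51 ± 0.17, adjusted p = 0.0915) and was not called, but 3 members fell without CCO4 replicate 2 or 4 or TCFM replicate 4. In BFUR, Mki67 stood at -0.74, -0.70 and -0.68 against -0.14, 0.14 and -0.20 without overlap (-0.64 ± 0.19), and its adjusted p was 0.0531. Over the exposed groups Mki67 means ran from -0.79 in BBMP to 0.08 in MECL_500 with a median of -0.34, and over the control sets from -0.73 to -0.07.

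Over all 34 groups the members called most often differed in how far their means ranged. Top2a means ran from -0.69 in BFUR to 0.35 in NAPD (control sets -0.32 to -0.05) and Cdk1 from -0.20 in CMPH to 0.67 in ABDQ (control sets -0.22 to 0.23). Mcm6 ran from 0.73 in PCNB to 1.35 in TCPN (control sets 0.82 to 1.05), and Mcm3 from -0.12 in DBET to 0.35 in MECL_4000 (control sets -0.00 to 0.18). Melk ran from -0.75 in TFEA to -0.29 in NPTH_30 (control sets -0.70 to -0.54). Pcna, never called in a group, ran from 3.40 in MECL_2000 to 4.03 in ABDQ (control sets 3.53 to 3.77). Top2a and Cdk1 thus ranged most among these genes.

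Over methylene chloride concentration, 8 members rose and 7 fell, and they divided by role. The trend over the 21 exposed arrays is given as the fitted change from 100 to 4000 ppm. All 8 members that rose encode licensing, fork or nucleotide supply proteins, 8 of the 11 tested in those roles, and all 7 that fell belong to mitosis, 7 of the 14 tested, none of them in the anaphase-promoting complex or kinetochore roles. Over all genes 27.2% were called upward and 15.1% downward, against 27.6% and 24.1% of the members, so the shares of calls are near the background or, for falls, above it. Medians were 0.23 for the replication genes, -0.11 for the mitotic genes and 0.04 for all genes. No test of the difference between roles was made.

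Mki67 had the largest fitted change (-0.61 ± 0.11, adjusted p = 0.000328). At 100 ppm it stood at -0.07, -0.03, -0.29, 0.62 and 0.08, and at 500 ppm at 0.32, 0.04, -0.05 and 0.00. At 2000 ppm the values were 0.07, -0.15, -0.06 and -0.29, at 3000 ppm -0.06, -0.34, -0.41 and -0.52, and at 4000 ppm -0.58, -0.66, -0.40 and -0.52. The 14 arrays of the air sets ran from -0.70 to -0.16 with a median of -0.50. The arrays of 4000 ppm thus lay within the air range, while 4 of the 5 arrays of 100 ppm and all 4 of 500 ppm were above it, Mki67 being 0.54 ± 0.12 higher than air at 100 ppm (adjusted p = 0.0607) and 0.56 ± 0.13 at 500 ppm (adjusted p = 0.0845).

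Top2a followed the same course (-0.40 ± 0.10, adjusted p = 0.00495). It stood at 0.00, 0.17, -0.16, 0.82 and -0.02 at 100 ppm, at 0.31, 0.13, 0.05 and -0.02 at 500 ppm, at 0.12, -0.09, -0.03 and 0.04 at 2000 ppm, at -0.03, -0.17, 0.01 and -0.18 at 3000 ppm and at -0.24, -0.31, -0.15 and -0.34 at 4000 ppm, while the air arrays ran from -0.44 to 0.04. Prc1 fell by 0.32 (± 0.07, adjusted p = 0.00179) from -0.24, -0.16, -0.31, 0.23 and -0.32 at 100 ppm to -0.43, -0.55, -0.39 and -0.53 at 4000 ppm. In between Prc1 stood at 0.02, -0.03, -0.19 and -0.27, at -0.16, -0.23, -0.28 and -0.23, and at -0.32, -0.31, -0.32 and -0.35, so the highest values were at 100 and 500 ppm. Smaller falls were called for Nusap1 (-0.31), Hmmr (-0.21), Aurka (-0.16) and Bub1b (-0.15). The falls were weaker or absent in other probe sets. Those of Top2a gave -0.06 and 0.08 and that of Nusap1 0.003, all below the filter. Those of Bub1b gave -0.05 and, above the filter, 0.06. All other probe sets of Prc1, Hmmr and Aurka fell, by -0.17 to -0.04, and Mki67 has no other.

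Mcm5 had the largest rise (0.47 ± 0.11, adjusted p = 0.00298). It stood at 0.25, 0.33, 0.40, 0.91 and 0.20 at 100 ppm, at 0.77, 0.40, 0.48 and 0.15 at 500 ppm and at 0.57, 0.30, 0.30 and 0.50 at 2000 ppm. It was higher at 3000 ppm (0.53, 0.55, 0.70 and 0.75) and at 4000 ppm (0.85, 1.10, 0.93 and 0.98), where all 4 arrays lay above the highest air array of 0.84. Mcm3 rose from -0.10, -0.07, -0.12, 0.25 and -0.16 at 100 ppm, through 0.20, -0.07, -0.08 and -0.12 at 500 ppm, 0.06, -0.11, -0.12 and 0.03 at 2000 ppm and 0.16, -0.01, 0.15 and 0.17 at 3000 ppm, to 0.29, 0.45, 0.29 and 0.38 at 4000 ppm (0.34 ± 0.07, adjusted p = 0.00148). Against air at 4000 ppm, Mcm5 was 0.37 ± 0.12 (adjusted p = 0.656) and Mcm3 0.27 ± 0.07 (adjusted p = 0.383), and no member was called at any single methylene chloride concentration (backgrounds 0.148% at 100 ppm, 0.0% at 500 ppm, 0.0148% at 2000 ppm, 0.577% at 3000 ppm and 0.503% at 4000 ppm). The other rises were of Cdt1 (0.29), Pcna (0.23), Mcm2 (0.23), Mcm6 (0.23), Mcm7 (0.21) and Rrm1 (0.13). Other probe sets of Mcm5 gave only 0.03 and 0.17, and the 4 of Mcm3 gave -0.10 to 0.16. All other probe sets of Mcm2, Mcm6, Mcm7, Cdt1 and Rrm1 rose, by 0.03 to 0.23, and Pcna has no other. With the probe sets averaged, Cdt1, Mcm7 and Bub1b lost their calls.

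**Figure D3:**
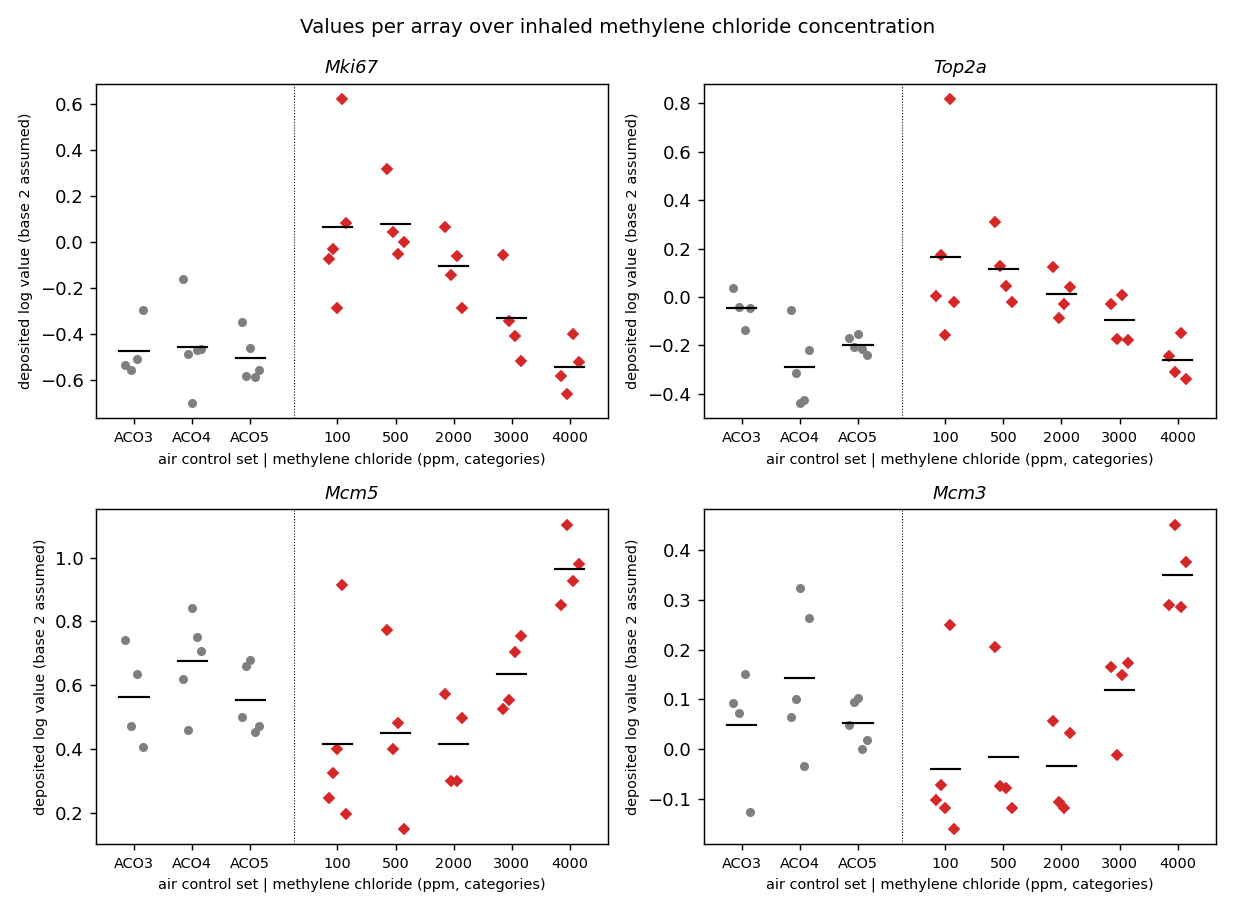
Deposited log value per array of Mki67, Top2a, Mcm5 and Mcm3 in the 3 air control sets (grey circles) and at 5 methylene chloride concentrations (red diamonds, concentrations as evenly spaced categories), with group means as bars. Mki67 and Top2a descend to the air level at 4000 ppm, and Mcm5 and Mcm3 are highest at 4000 ppm.

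With the air arrays added at 0 ppm the split was mostly gone: 1 call was left (Rrm1, 0.18), Mki67 was at -0.12 (adjusted p = 0.685) and Mcm5 at 0.27 (adjusted p = 0.0838). MECL_100 replicate 4 was the highest array for Mki67 and Top2a, with a mean over the 29 members of 0.57 against 0.06 to 0.16 on the other 4 arrays of its group. Without it 13 members were called, Mki67 was at -0.53 and Mcm5 at 0.56, and Aurka (-0.12, adjusted p = 0.0657) and Bub1b (-0.12, adjusted p = 0.0552) lost their calls. The count was lowest, at 9, without MECL_4000 replicate 2. Mcm7 was lost without MECL_4000 replicate 2 or 4, Mcm6 without MECL_4000 replicate 2, Aurka also without MECL_4000 replicate 1, 2 or 4 and Bub1b without MECL_4000 replicate 1 or 2. Cdt1 lost its call without any of 9 arrays (0.21 to 0.28, adjusted p = 0.0522 to 0.124), namely MECL_100 replicates 1, 2, 3 and 5, MECL_500 replicates 2 and 4 and MECL_4000 replicates 2, 3 and 4. Rrm1 lost it without any of 12 (0.10 to 0.13, adjusted p = 0.0509 to 0.11), namely MECL_100 replicates 1, 2 and 5, MECL_500 replicates 2, 3 and 4, MECL_2000 replicate 3, MECL_3000 replicates 1, 3 and 4 and MECL_4000 replicates 2 and 4. Markers of other cell types moved along the same series, 3 of 5 tested fibroblast and matrix markers being called lower, and the mean of that list fell from 2.39 to 2.51 at 100 ppm to 1.98 to 2.24 at 4000 ppm. In the same series 3 of 5 alveolar type 2 markers (Etv5 0.52, Napsa 0.48 and Abca3 0.24), 1 of 4 club cell markers (Scgb3a2 0.34) and 1 of 6 endothelial markers (Vwf 0.47) rose. Of 6 ciliated cell markers, Dynlrb2 (0.37) and Tekt1 (0.28) rose and Ccdc39 (-0.50) fell. RNA integrity numbers were 7.3 to 8.9 at 100 ppm, lowest in replicate 4, and 9.2 to 9.5 at 4000 ppm. The part of these cell types and of RNA quality in the members' trends was not tested.

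Over naphthalene concentration 4 members rose and 1 fell from 0.5 to 30 ppm (13.8% and 3.45%, against 9.08% and 31.7% of all genes). Melk rose by 0.32 ± 0.05 (adjusted p = 8.45e-05), from -0.63, -0.71, -0.65 and -0.54 at 0.5 ppm, through -0.61, -0.50, -0.57 and -0.46 at 3 ppm and -0.47, -0.55, -0.49 and -0.45 at 10 ppm, to the values at 20 and 30 ppm given above. Cdk1 rose by 0.32 ± 0.10 (adjusted p = 0.0151), from 0.12, -0.09, 0.05 and 0.19 at 0.5 ppm to 0.57, 0.65, 0.34 and 0.37 at 30 ppm. The 30 ppm arrays of Cdk1 lay above all 14 air arrays, but the difference from air (0.44 ± 0.12) was not called (adjusted p = 0.159). Cdk1 was not ordered at lower concentrations, with 0.28, 0.19, 0.24 and 0.44 at 3 ppm 0.09, -0.23, 0.06 and -0.03 at 10 ppm and 0.12, 0.28, 0.42 and 0.16 at 20 ppm, and its trend was lost without NPTH_30 replicate 2 (0.26, adjusted p = 0.053).

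Tk1 rose by 0.20 ± 0.05 (adjusted p = 0.00572) and Hmmr by 0.10 ± 0.03 (adjusted p = 0.0149), and Mcm4 fell by 0.19 (± 0.05, adjusted p = 0.0029). Tk1 ran from -0.47 to -0.18 between 0.5 and 20 ppm and stood at 0.00, -0.09, -0.20 and -0.28 at 30 ppm, against -0.50 to -0.20 over the air arrays. Mcm4 stood at 0.57, 0.67, 0.74 and 0.84 at 0.5 ppm and at 0.54, 0.50, 0.47 and 0.43 at 30 ppm, within the air range of 0.32 to 0.80 but for the highest array. Hmmr was at -0.60, -0.68, -0.58 and -0.63 at 0.5 ppm and at -0.52, -0.50, -0.53 and -0.53 at 30 ppm, without overlap. Of these genes only the direction of Mcm4 is that of most genes in the series, and the 4 rises ran against it, since the median of all genes was -0.07 and that of the members 0.07. With air added at 0 ppm 9 members rose, without a share of all genes to set beside them, and Mcm4 was at -0.09 (adjusted p = 0.211). Lymphocyte and endothelial markers moved in the same series, with 6 of 7 T and NK cell markers and 4 of 6 endothelial markers lower. The mean of the endothelial markers was 3.56 to 3.67 at 0.5 ppm and 2.95 to 3.42 at 30 ppm. Of 5 alveolar type 2 markers, Napsa (0.56), Slc34a2 (0.52), Abca3 (0.34) and Sftpc (0.25) rose, and their mean was 4.36 to 4.56 at 0.5 ppm and 4.65 to 4.89 at 30 ppm. Of 4 club cell markers, Cckar (-1.35), Cyp2f2 (-0.39) and Scgb1a1 (-0.19) fell and Scgb3a2 (0.15) rose. Beta-actin 3′ minus 5′ values were 0.65 to 0.87 at 0.5 ppm, 0.72 to 0.91 at 3 ppm and 0.51 to 0.61 at 30 ppm, and RNA integrity numbers 8.8 to 9.1 at 0.5 ppm and 9.3 to 9.5 at 30 ppm. The part of these cell types and of RNA quality in the trends was not tested. At 0.5, 3 and 10 ppm no member was called against air (backgrounds 0.37%, 0.355% and 0.555%).

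**Figure D4:**
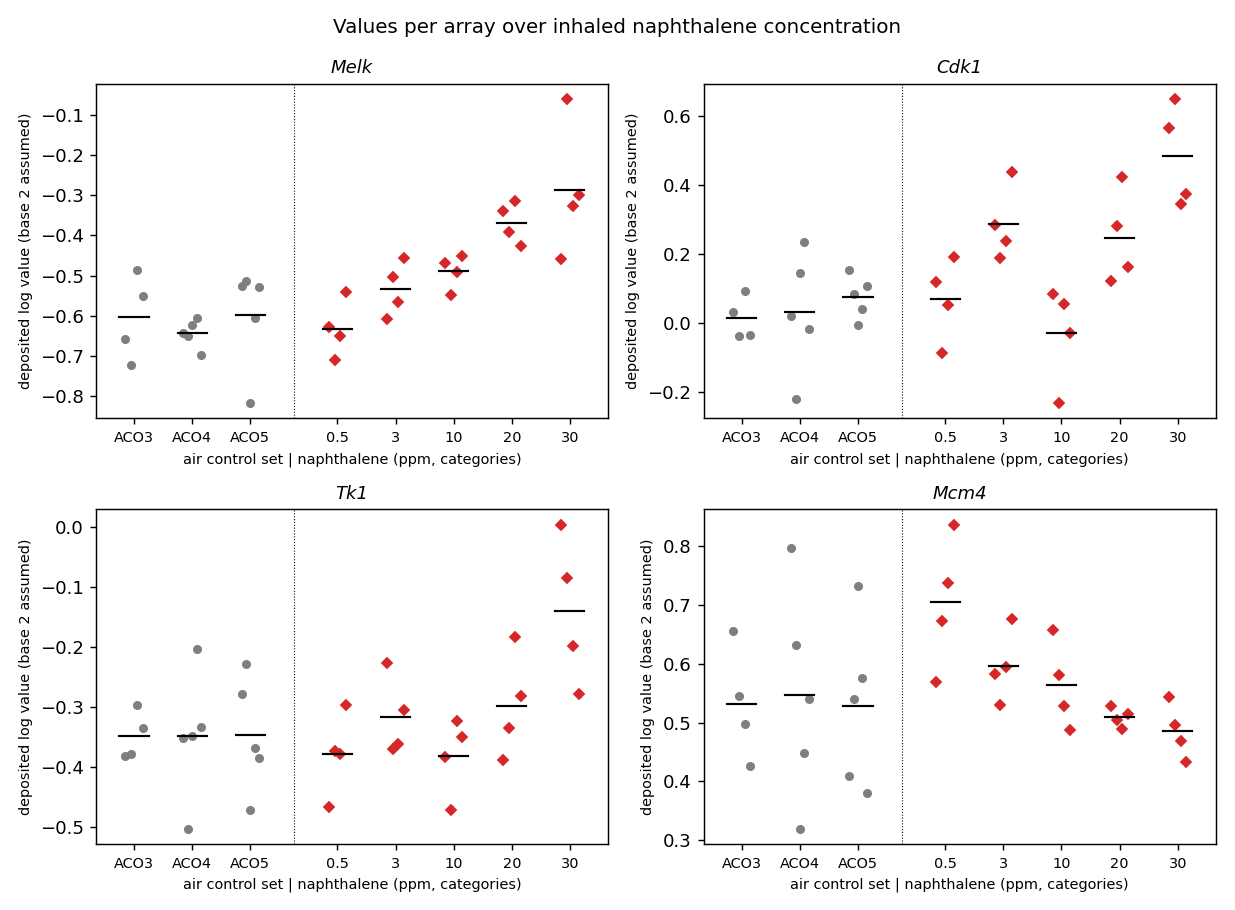
Deposited log value per array of Melk, Cdk1, Tk1 and Mcm4 in the 3 air control sets (grey circles) and at 5 naphthalene concentrations (red diamonds, concentrations as evenly spaced categories), with group means as bars. Melk is above all air arrays at 20 and 30 ppm, and Cdk1 at 30 ppm.

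In 24 groups no member was called, yet several had members that lay higher than most genes. Beside the groups given elsewhere, the share of all genes called was 4.33% in VANP, 2.67% in DBET, 1.71% in MALA, 1.43% in DCBZ, 0.673% in PGBE, 0.488% in TCFM, 0.0961% in TFEA, 0.0296% in BENZ, 0.0148% in NAAC, 0.00739% in PCNB and TDPP, and 0.0% in CMPH and ETOX. In DIAZ all 29 members were above 0, as were 69.3% of all genes, and 25 lay above the median of all genes. Of the members 17 had an unadjusted p under 0.05 by limma, against 11.3% of all genes. There 0 genes of any kind were called (background 0.0%). Mcm5 led there, at 0.51 ± 0.14 (adjusted p = 0.335). DIAZ, BBMP, MALA and NAAC share the FCO2 controls, and NAPD, NEDD and PCNB share the RodentChow controls. Differences of groups that share controls are not independent. No DIAZ array has an RNA integrity number, nor do FCO2 replicates 1 and 4. In NAPD 28 of 29 members were above 0 (51.7% of all genes), 13 with an unadjusted p under 0.05, and the members' median was 0.19 (all genes 0.00). Of all genes 6.36% had such a p and 1.09% were called. Ube2c was at 0.58 ± 0.21 (adjusted p = 0.277) and Ccna2 at 0.35 ± 0.11 (adjusted p = 0.0891). In NEDD, a naphthalene ring with an amine side chain where NAPD carries amines on the ring, the median was 0.17 and 5 members had an unadjusted p under 0.05, against 7.03% of all genes (0.0887% called). Set directly against each other at the same 2000 ppm, NAPD and NEDD gave 0 of 29 calls (background 1.54%), with 1 member at an unadjusted p under 0.05, against 8.30% of all genes. For Mki67 the difference was 0.105 (95% interval -0.27 to 0.48) and for Cdk1 0.20 (-0.15 to 0.56), and both intervals include 0. Without DIAZ replicate 1, NAPD replicate 2 or TFEA replicate 4, 2 members were called in that group, and without NEDD replicate 2, 1.

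The 10 dim members were fitted only without the filter on dim genes. There Bub1, a checkpoint kinase, and the cyclin gene Ccne2 rose in TCPN (0.26 and 0.23) and fell in IODO (-0.35 and -0.22). No other dim member was called in any group. Along methylene chloride concentration the spindle assembly factor Tpx2 (-0.23) and Bub1 (-0.36) fell and the licensing factor Cdc6 (0.18) rose, and along naphthalene concentration Kif20a, Cdc6, Ccne2, Aurkb and Tyms rose by 0.11 to 0.16. Since these genes lie near the floor of the array, such values describe a change in dim signal. The shares of all genes called without the filter are not given here, so these calls have no background beside them. With the filter, 7.73% of all genes rose in TCPN and 11.9% fell in IODO. Along methylene chloride 27.2% rose and 15.1% fell, and along naphthalene 9.08% rose.

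Members also varied together between animals of the same group, within roles and across some of them. Each gene's deviations from its group means were correlated over the 133 exposed and 58 control arrays, as a description, since arrays share RNA quality and scaling. Pearson's r had a median of 0.43 over the 406 pairs of members and 0.08 over all pairs of tested genes. It was 0.53 within mitosis, 0.47 within replication and nucleotide supply, and 0.23 between them. Cyclins and CDK had a median of 0.60 among themselves, 0.64 with mitosis and 0.24 with replication and nucleotide supply. Cdk1 with Birc5 was the closest pair (0.90), and Ccne1 with Pcna the most opposed (-0.39). Mean r with the other members was highest for Cdk1 (0.57), Birc5 (0.57) and Ccnb2 (0.56) and lowest for Mcm4 (0.03) and Ccne1 (0.10). On the 58 control arrays alone the median over member pairs was 0.35. The genes outside the list most like the members' mean were Pbk (0.87), Racgap1 (0.84), Cdca3 (0.82), Cdca5 (0.80) and Tcf19 (0.80), and 11 of the top 20 belong to a list of other cell cycle genes.

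**Figure D5:**
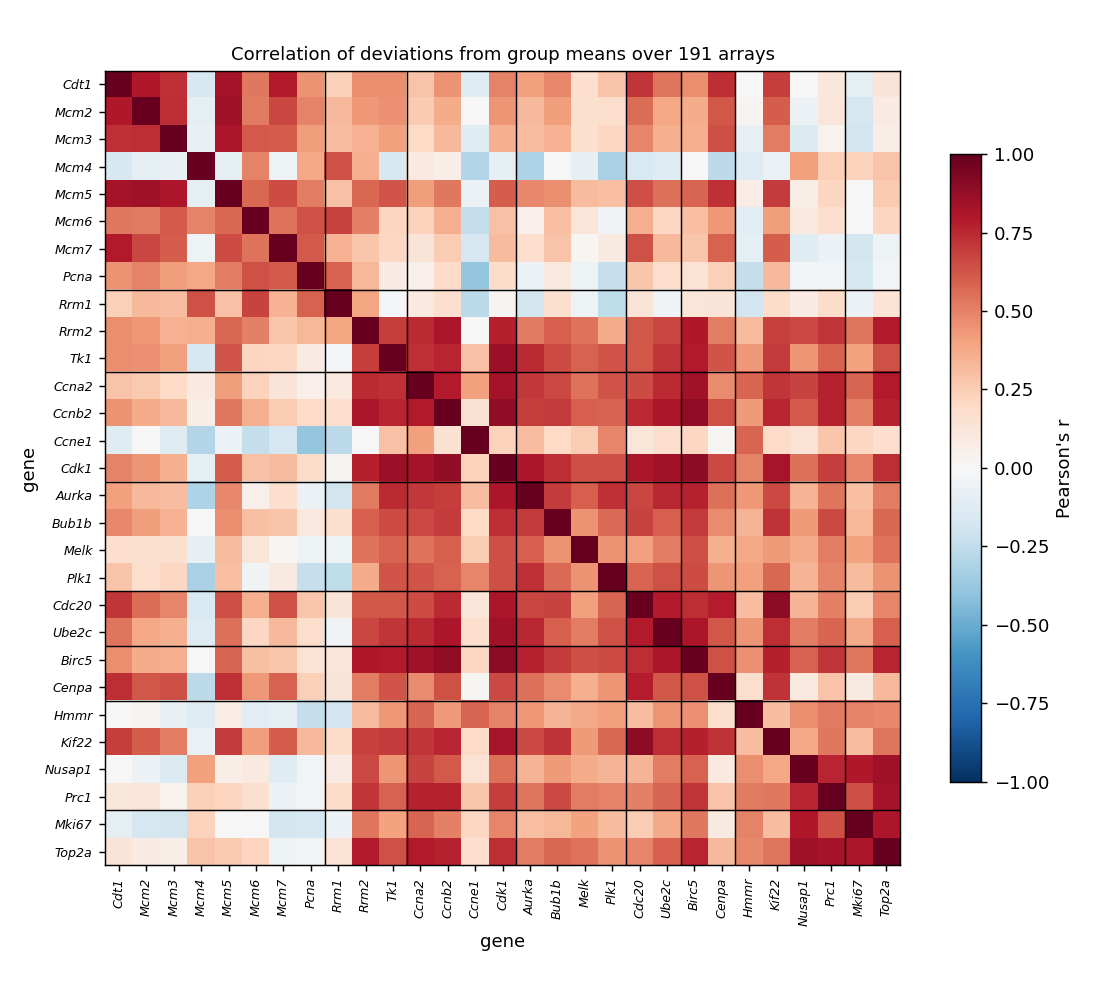
Pearson's r of deviations from group means over all arrays for each pair of the 29 tested members, ordered by role with lines between roles. Cdk1, Ccnb2 and the mitotic genes form a red block with a median of 0.53 within mitosis, and Mcm4 and Ccne1 are pale against most members.

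The members' promoters hold short sequences in common, shown here for genes of each wave. The RefSeq promoter table (GRCm38.p6, 250 bases before to 50 after a start) held 33 of the 40 members with 35 promoters, among 32851 promoters. Both strands were searched for CCAAT (the box bound by NF-Y), TTTGAA (the cell cycle homology region, CHR, of late genes) and TTTNNCGC (an E2F-type site). Capitals mark matches to these motifs on either strand in the 150 bases before the outermost annotated start of each gene.
Cdk1, chr10:69352913-69353062, minus strand: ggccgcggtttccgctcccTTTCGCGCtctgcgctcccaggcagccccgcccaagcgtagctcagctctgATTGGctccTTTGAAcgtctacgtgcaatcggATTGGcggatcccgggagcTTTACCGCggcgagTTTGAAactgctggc
Top2a, chr11:99024200-99024349, minus strand: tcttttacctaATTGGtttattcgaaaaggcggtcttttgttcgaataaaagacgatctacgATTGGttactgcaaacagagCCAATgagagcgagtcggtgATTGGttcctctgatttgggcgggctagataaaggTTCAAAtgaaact
Ube2c, chr2:164769779-164769928, plus strand: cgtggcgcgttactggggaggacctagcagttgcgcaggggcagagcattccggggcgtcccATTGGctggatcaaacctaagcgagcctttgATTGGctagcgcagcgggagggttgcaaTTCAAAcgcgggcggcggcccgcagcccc
Mcm6, chr1:128359706-128359855, minus strand: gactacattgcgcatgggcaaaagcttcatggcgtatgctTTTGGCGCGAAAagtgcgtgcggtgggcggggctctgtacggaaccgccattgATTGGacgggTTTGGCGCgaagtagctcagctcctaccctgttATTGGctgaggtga
Mcm5, chr8:75109318-75109467, plus strand: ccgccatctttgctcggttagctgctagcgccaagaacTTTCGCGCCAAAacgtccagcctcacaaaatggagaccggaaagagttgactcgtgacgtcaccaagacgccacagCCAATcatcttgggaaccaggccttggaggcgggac

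The mitotic and replication promoters differed in how often they held TTTGAA and TTTNNCGC. TTTGAA was in 72.2% of 18 mitotic promoters, 7.69% of 13 replication and nucleotide supply promoters and 17.9% of all promoters. TTTNNCGC was in 0 of 18 mitotic promoters, 53.8% of the replication promoters and 5.17% of all. The shorter GGCGC, the core of E2F sites, which TTTNNCGC can contain, divided them less, with 50.0% of mitotic, 84.6% of replication and 36.9% of all promoters. CCAAT was in 77.1% of the members' promoters and 37.4% of all. In the windows shown Cdk1 held 2 matches each of TTTGAA and TTTNNCGC, Top2a and Ube2c TTTGAA without TTTNNCGC, and Mcm6 and Mcm5 TTTNNCGC without TTTGAA. Matches of TTTNNCGC on opposite strands overlap each other in Mcm6 and Mcm5. Top2a fell and Mcm6 and Mcm5 rose along methylene chloride concentration, and Cdk1 and Ube2c were not called there, but a match is a description of letters and not a bound site.

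Of 107 other cell cycle genes outside the members 74 were tested. In TCPN 14 rose (18.9%, against 7.73% of all genes) and 0 fell, with a median of 0.11. In BBMP 12 rose (16.2%, against 10.4%) and 1 fell (background 54 of 13524 genes), with a median of 0.07. Shares in IODO were near or below the background, with 9 up and 9 down (12.2% each, against 15.6% and 11.9%). In MACR 2 rose (2.70%, against 4.19%) and 2 fell (background 141 of 13524 genes). In ABDQ 1 rose (1.35%, against 0.643%), and the median was 0.11. In TCPN the condensin gene Smc4 (0.84 ± 0.21, adjusted p = 0.0153), the cytokinesis gene Ect2 (0.57 ± 0.08, adjusted p = 2.97e-05) and the retinoblastoma gene Rb1 (0.54 ± 0.14, adjusted p = 0.0324) led. In BBMP the CDK inhibitor genes Cdkn2d (0.52 ± 0.14, adjusted p = 0.016) and Cdkn2c (0.45 ± 0.16) and the kinase gene Wee1 (0.41 ± 0.11), which hold the cycle back, led. In IODO Smc4 (-0.90 ± 0.25, adjusted p = 0.0106), Dbf4 (-0.45 ± 0.10) and Smc2 (-0.44 ± 0.14) led, in ABDQ Cdca5 was the call (0.38 ± 0.09), and in MACR the inhibitor genes Cdkn1a (-0.79 ± 0.25) and Cdkn1c (-0.43 ± 0.12) fell and Rbl1 rose (0.47 ± 0.12).

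Of 19 targets of p53, the transcription factor that DNA damage activates, 15 were tested. In TCPN 5 of the 15 rose (33.3%, against 7.73% of all genes) and 0 fell (median 0.22), led by Ccng1 (1.11 ± 0.17, adjusted p = 0.000233) and Trp53inp1 (0.61 ± 0.17, adjusted p = 0.0324). In BBMP 3 rose (20.0%, against 10.4%), namely Phlda3 (0.44), Zmat3 (0.31) and Aen (0.29). In ABDQ Btg2 rose (0.69 ± 0.19, background 0.643%). In MACR Ccng1 rose (0.80, background 4.19%) and Cdkn1a fell (background 141 of 13524 genes). In IODO Phlda3 rose (0.64, background 15.6%). There 5 of the 15 fell (33.3%, against 11.9%), among them Ccng1 (-0.66) and Trp53inp1 (-0.62). Markers of other cell types were set beside these groups. In TCPN 2 of 6 ciliated cell markers rose (Foxj1 0.56, Ccdc39 0.53), with a mean over the list of 1.04 to 1.28 in TCPN, 0.57 to 1.04 in CCO5 and 0.70 to 0.87 in CCO6, and the macrophage marker Mrc1 rose (0.83). In BBMP 0 of 3 neutrophil markers were called but their mean was 2.21 to 2.97 against 1.06 to 1.93 in FCO2, and 1 of 5 plasma cell markers rose (Pou2af1 0.59), with a mean of 2.00 to 2.44 against 1.38 to 1.98. Thymocyte markers were called in 1 of 5 cases in BBMP and in none in TCPN or ABDQ. The part of these cell types in the members' values was not tested.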

How the data were processed

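Lung RNA of each mouse was measured on a 1-colour Affymetrix mouse genome array. The authors deposited 1 table of log2 values (base 2 is assumed here), centred so that each array has a mean near 0. The normalization behind them is not given in the sources used here, and the number of arrays limits the precision. Of 45101 probe sets 34958 carried 1 gene symbol, 932 several and 9211 none, and the single-symbol probe set of the highest mean stood for its gene. Genes above the median of all values (-0.39) on at least 3 arrays were fitted with limma 3.58.1 in R 4.3.3, with 48 group means over all arrays and Benjamini-Hochberg adjustment. Trends were linear in concentration over the exposed arrays. Tables and figures used pandas 2.3.3, numpy 2.4.6 and matplotlib 3.10.9. Individual animal numbers mark separate mice. 32 arrays have no RNA integrity number and 2 lie under 7.

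The members and lists were chosen with earlier results of these data known. Array values were printed for the 3 called members of the largest change per group, the 5 per trend, and Mki67, Top2a and Pcna where a result turns on them. Other normalizations, filters, control sets, array subsets and concentration scales were tried. Each array was left out in turn, in 85 fits that each dropped up to 1 array of every batch code. A group result without a named array can thus also lack arrays of other codes, which enter only through the shared spread. The trends were fitted to their own arrays and lacked the named array alone. On simulated data of 13524 genes laid out as TCPN, 67 of 100 genes shifted by 0.5 and 99 of 100 shifted by 1 were called, with 1 false call. Laid out as the methylene chloride trend, 37 of 100 shifted by 0.3 and 90 of 100 shifted by -0.6 were called, with 2 false calls. The noise was drawn independently for each gene and array. It held no differences between arrays in SD or RNA quality and no correlation between genes. These counts therefore do not give the rate of false calls in the real data.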

Additional observations from a re-analysis of the deposited data

Results flagged for a closer look

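Single arrays lay far from the rest of their group for 11 of 210 values tested in groups of 4 or 5 arrays, and chance flags about 1 in 20. The mean over the 29 tested members was 0.569 in MECL_100 replicate 4. Mki67 was highest in ACO3 replicate 4 (-0.29) and DBET replicate 4 (0.17) and lowest in FCO1 replicate 1 (-0.44). Top2a was highest in DBET replicate 4 (0.40) and lowest in IODO replicate 2 (-0.73). Pcna was highest in CCO5 replicate 4 (3.92), an array of RNA integrity number under 7, and lowest in CMPH replicate 4 (3.27) and DBET replicate 1 (3.19). Melk was lowest in FCO2 replicate 2 (-0.74) and highest in MACR replicate 2 (-0.39).

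Groups of the same chemical differed with concentration for 20 fitted changes. Along methylene chloride concentration Mcm5 (0.47), Mcm3 (0.34), Cdt1 (0.29), Pcna (0.23), Mcm2 (0.23), Mcm6 (0.23), Mcm7 (0.21) and Rrm1 (0.13) rose. In the same series Mki67 (-0.61), Top2a (-0.40), Prc1 (-0.32), Nusap1 (-0.31), Hmmr (-0.21), Aurka (-0.16) and Bub1b (-0.15) fell. Along naphthalene concentration Cdk1 (0.32), Melk (0.32), Tk1 (0.20) and Hmmr (0.10) rose and Mcm4 (-0.19) fell.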

How the results depend on the processing

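Counts of called members depended on the processing. For the medians, 684 of 692 alternatives gave a shift smaller than the SD of the members' mean between the exposed arrays of the group. That SD can exceed the median, as in ABDQ (0.24, median 0.21) and MECL_100 (0.21, median 0.04). Such a median could reach 0 and still count as unmoved. Counts and medians were held to different rules, so their stability cannot be compared. Under the settings other than leaving out an array, 237 of 328 tests of a named call kept it, and 551 of 687 did so with an array left out; the cause was not tested. After quantile normalization the counts were ABDQ 7, MACR 5, TCFM 3, COUM 2, MECL_100 1, MECL_500 1, VANP 1, 0 in BBMP, BFUR, TCPN and TFEL, and 9 in the methylene chloride trend. With array medians subtracted BFUR and MACR had 0. Without the filter BFUR and MACR had 0, TCPN 12 and the naphthalene trend 10, with more genes tested. With the mean of all probe sets BFUR and MACR had 0, BBMP 1, VANP 1 and the naphthalene trend 8. Against the mean of the control set means alone TCPN had 13, MECL_100 6, NPTH_30 5, MECL_500 4, PGBE 3, COUM 2, VANP 2, MECL_4000 1 and NPTH_10 1. With pooled controls these were 14, 8, 5, 4, 4, 2, 2, 1 and 1, and BFUR had 2. With only the arrays compared NPTH_30 had 3, MECL_100, NAAC, TCPN and VANP 1, and ABDQ, BFUR, COUM, IODO and MACR 0. Without arrays of RNA integrity number under 7 BFUR had 2 and NPTH_20 0. On log10 concentration the methylene chloride trend had 6 and the naphthalene trend 3, and with air at 0 ppm 1 and 9, where Mcm7 reversed along methylene chloride (-0.038). With 1 array left out the counts ran from 0 to 10 in ABDQ, 0 to 8 in BBMP, 0 to 7 in IODO, 0 to 4 in MACR, 3 to 8 in TCPN, 0 to 3 in TCFM, 0 to 2 in BFUR, COUM, DIAZ, NAPD and TFEA, and 0 to 1 in NEDD, NPTH_20 and TFEL. They ran from 9 to 15 in the methylene chloride trend and 4 to 7 in the naphthalene trend. The shares of all genes called under these settings are not given here. A change in a count thus cannot be told from a change in calling over all genes. No paired analysis was possible because the labels give no replicate numbers that groups share. Dim genes near the median of all values limit what small changes these arrays can show.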
